A study of Mus musculus with 10 samples.

Results

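The 8 CC chemokine genes Ccl2, Ccl3, Ccl4, Ccl5, Ccl7, Ccl8, Ccl9 and Ccl12 were followed in mouse macrophages and microglia taken from retina and from optic nerve. The members were taken by name, and all 8 were found among the 52181 gene entries of the table, 16620 of which held a unique molecular identifier (UMI, the tag that counts a captured RNA molecule once). Cells came from wild-type mice of the strain labelled 129S1/SvlmJ, of both sexes and 10 weeks old (the strain label carries a younger age note), and were read by droplet sequencing of transcript 3′ ends. Injured optic nerve and injured retina came from animals whose optic nerve had been crushed at 8 weeks, 2 weeks before collection. Uninjured optic nerve and uninjured retina came from animals of the same age without a crush, and no other allele or agent is named for any group.

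CC chemokines are small secreted proteins with an adjacent pair of cysteines that attract leukocytes through G protein-coupled receptors. Ccl2, Ccl7 and the mouse gene Ccl12 act mainly through Ccr2 on monocytes, and Ccl3 and Ccl9 act through Ccr1. Microglia and macrophages make several of them within minutes to hours of activation by way of the transcription factors NF-kB and AP-1, and such genes are also known to rise while tissue is dissociated.

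All 8 genes lie on mouse chromosome 11 (GRCm38, GENCODE M21 positions) in a pair of clusters with a gap of 1409 kb between Ccl8 and Ccl5. The first cluster holds Ccl2 (82035571-82037453), Ccl7 (82045712-82047525), Ccl12 (82101845-82103400) and Ccl8 (82115185-82116799), all on the plus strand. The second holds Ccl5 (83525778-83530518), Ccl9 (83572919-83578636) and Ccl3 (83647844-83649355) on the minus strand and Ccl4 (83662584-83664683) on the plus strand. All 8 are protein coding, Ccl2 alone overlaps another annotated gene (Gm17268), and no stretch of 50 bases is shared between the transcripts of any pair of members, so reads could be told apart between them.

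The RefSeq promoter table (GRCm38.p6) held 4 of the 8 genes, Ccl3, Ccl8, Ccl9 and Ccl12. The 250 bases before the transcription start are shown 5′ to 3′ on the gene's strand for the 3 of them that fell together in injured retina, Ccl12 (chr11:82101595-82101844, plus strand), Ccl9 (chr11:83578637-83578886, minus strand) and Ccl3 (chr11:83649379-83649628, minus strand). Capitals mark matches on either strand to a kappaB motif (GGG and CC with any 5 bases between them), an AP-1 motif (TGANTCA) or a TATA box (TATAAA).
Ccl12: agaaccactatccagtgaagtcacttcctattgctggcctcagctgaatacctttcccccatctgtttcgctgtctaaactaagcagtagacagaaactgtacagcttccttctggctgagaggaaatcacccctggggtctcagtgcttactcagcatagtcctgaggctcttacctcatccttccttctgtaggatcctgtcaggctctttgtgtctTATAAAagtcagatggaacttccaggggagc
Ccl9: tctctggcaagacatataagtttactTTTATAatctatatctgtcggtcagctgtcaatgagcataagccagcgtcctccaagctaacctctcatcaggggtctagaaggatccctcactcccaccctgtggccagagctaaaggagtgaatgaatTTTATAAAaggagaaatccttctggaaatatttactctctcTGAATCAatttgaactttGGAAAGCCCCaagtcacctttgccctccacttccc
Ccl3: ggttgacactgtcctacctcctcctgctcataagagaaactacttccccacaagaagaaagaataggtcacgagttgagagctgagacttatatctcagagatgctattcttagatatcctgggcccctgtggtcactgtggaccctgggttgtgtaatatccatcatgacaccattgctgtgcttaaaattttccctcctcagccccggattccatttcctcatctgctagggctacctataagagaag
The Ccl12 window held a TATA box at -31 to -26, and the Ccl8 window held the same letters at -32 to -27. The Ccl9 window held the kappaB letters at -35 to -26, the AP-1 letters at -53 to -47 and 3 TATA matches, of which a pair overlaps between -94 and -87. The Ccl3 window held no match to these letters. Among the 32851 promoters of the same length in the table, 45.8% held the kappaB letters, 6.75% the AP-1 letters and 12.4% the TATA letters, against 1, 1 and 3 of the 4 member promoters.

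The study describes 10 samples. The table separates 8 libraries, 2 per group, because the 4 injured retina samples appear as a pool of samples 1 and 2 and a pool of samples 3 and 4. Both uninjured retina libraries are single samples, so in retina a difference by crush cannot be told apart from one by pooling. Libraries held 12 to 682 cells, 56838 to 5234954 UMIs and a median of 1078 to 12989 UMIs per cell, and uninjured retina rested on 43 cells in all. Nothing states whether libraries came from separate animals, so p-values measure only the spread between these libraries. Of 15 microglia identity genes, 14 or 15 were detected in every library, with a summed level of 16144 to 34818 UMIs per 1000000 UMIs of the library (CPM). Of 15 T and NK cell genes, 12 were detected in each injured retina pool and 0 or 1 in uninjured retina, and 46 of the 166 injured retina cells clustered as T/NK-like, which goes against their label. In optic nerve, 83 cells clustered as oligodendrocyte-like, a cluster also led by Dcn, Itih5 and Col1a1, and 45 of the 103 cells of uninjured optic nerve 2 clustered as border macrophage-like (macrophages of vessels and meninges). The 2 barcodes found in more than 1 library both joined injured optic nerve 1 and 3. Intervals, floors and shares of cells cover counting error only.

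Ccl4 was the most abundant member in all 8 libraries, in CPM of UMIs, which count molecules by their 3′ ends and carry no factor of gene length. The 8 genes together made up 0.612% and 0.702% of UMIs in injured retina, against 2.68% and 2.10% in uninjured retina. They made up 0.475% and 0.116% of UMIs in injured optic nerve, against 0.898% and 0.754% in uninjured optic nerve. At least 1 member was detected in 83.5% and 64.9% of injured retina cells and in all cells of both uninjured retina libraries. Ccl3 and Ccl4 supplied 86.0% and 76.6% of member UMIs in injured retina, against 82.0% and 91.0% in uninjured retina. The chemokines of the first cluster (Ccl2, Ccl7, Ccl8 and Ccl12) supplied 30.2% and 26.1% of member UMIs in injured optic nerve, against 51.9% and 33.3% in uninjured optic nerve.

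**Figure D1:**
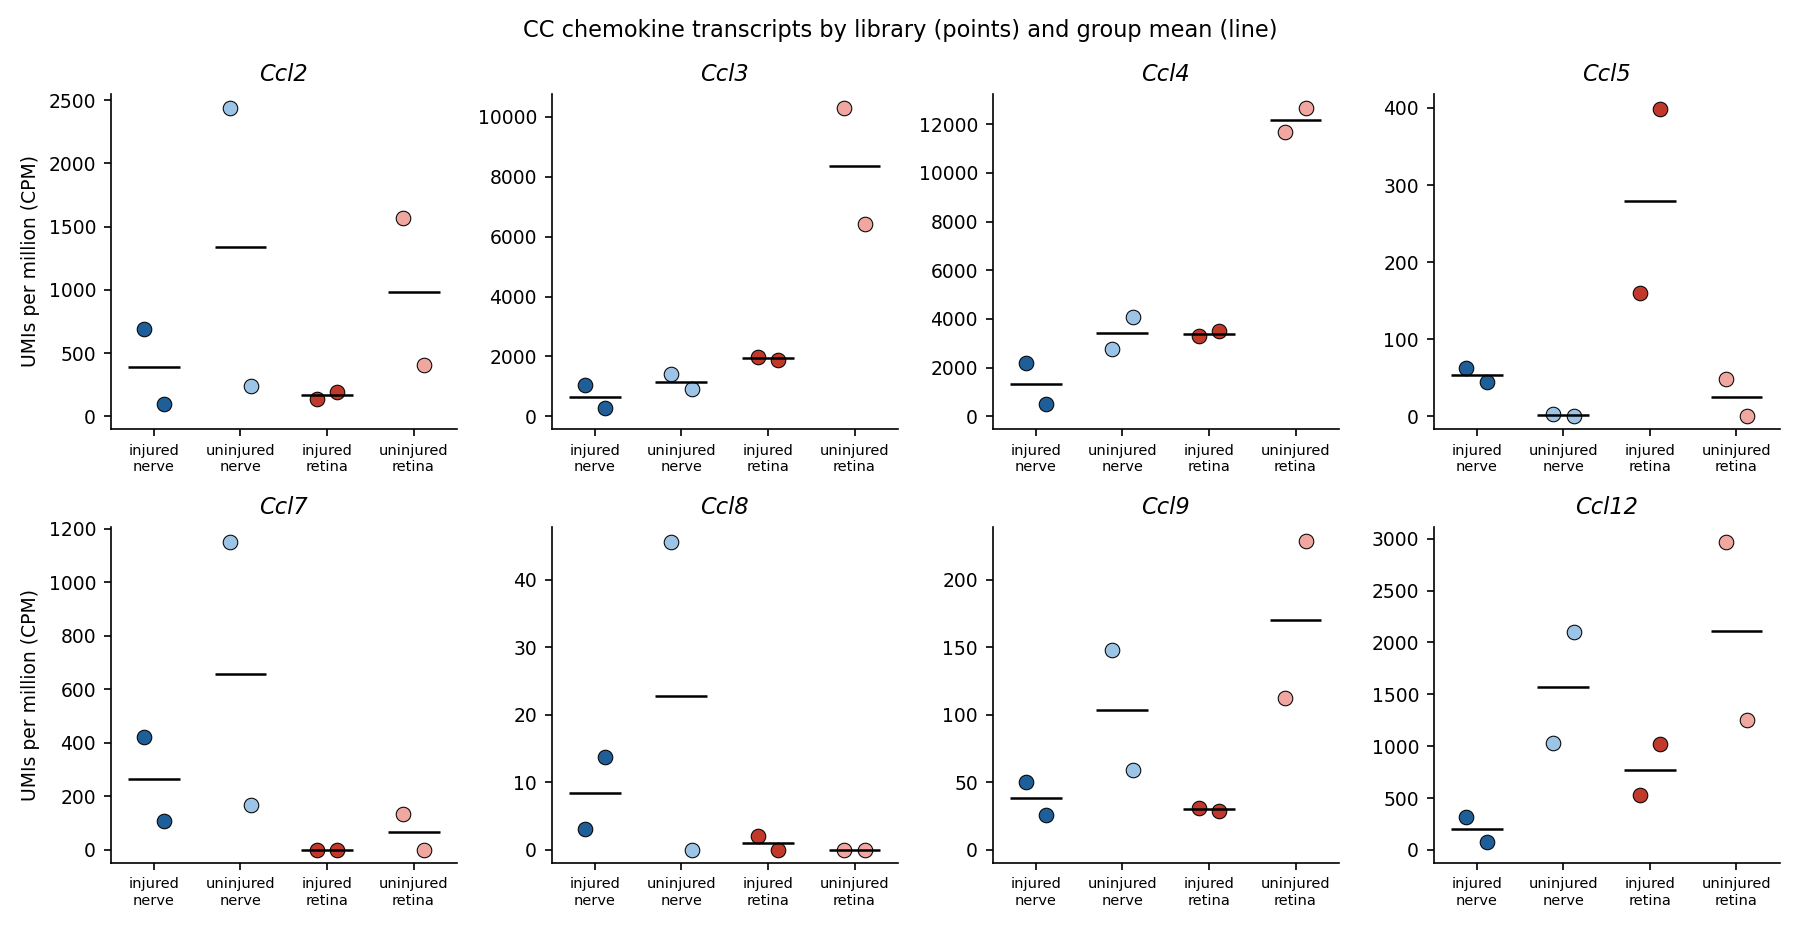
Level of each CC chemokine in CPM (linear y axis, scaled per gene) in the 8 libraries. Points are libraries (lower number on the left within a group) and lines are group means of 2 libraries. Ccl4 stood at 3284 and 3496 CPM in injured retina, below 11675 and 12650 CPM in uninjured retina, and Ccl5 was the one member whose group mean was highest in injured retina.

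In retina, 5 chemokines fell after crush and 1 rose among the 6 that entered the test (edgeR quasi-likelihood on summed UMIs, Benjamini-Hochberg adjustment over 3312 genes). Over all genes tested, 9.72% fell and 9.99% rose (19.7% changed). Ccl7 and Ccl8 had too few UMIs to enter it. Ccl9 would not have passed the filter on low counts without the uninjured libraries, nor Ccl5 without the injured ones. The count of 6 and the p-values of Ccl9 and Ccl5 are therefore descriptions. By library, the same 5 lay below the uninjured libraries without overlap and Ccl5 above them, where 20.6% of 9059 genes lay below and 33.1% above. The median log2 fold change of the 6 was -1.96, against 0.07 for all genes tested.

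Ccl3 and Ccl4, neighbouring genes whose products attract monocytes and T cells, fell in injured retina and stayed the most abundant members there. Ccl3 had 1980.4 and 1885 CPM in injured retina, against 10281 and 6439 CPM in uninjured retina, and fell by 2.12 ± 0.34 on the log2 scale (SE, adjusted p = 0.0017 by edgeR). Ccl4 had 3284 and 3496 CPM in injured retina, against 11675 and 12650 CPM in uninjured retina. It fell by 1.81 ± 0.29 on the log2 scale (SE, adjusted p = 0.0016 by edgeR). The groups did not overlap for either gene, and the injured pools lay close together. Ccl4 averaged 3390.1 ± 150.3 CPM in injured retina and 12162 ± 689.6 CPM in uninjured retina (SD, n = 2 each). Without the pool of samples 1 and 2 the adjusted p of Ccl4 was 0.055. Among myeloid cells left after removing T/NK-like, border macrophage-like, oligodendrocyte-like and endothelial-like cells, Ccl3 was seen in 94.1% and 93.9% of injured retina cells, against 96.3% and 100% of uninjured retina cells. The injured cells were read more deeply (median 14067 and 6333 UMIs per cell, against 4193 and 4712), and thinned to 1000 UMIs per cell the shares were 68.9% and 64.3% in injured retina, against 91.1% and 92.2% in uninjured retina. Ccl3 was seen in 0 of 47 T/NK-like cells (median 2422 UMIs per cell), 46 of them from retina, and retina held no oligodendrocyte-like cells from which a background share could be read. The Ccl3 level of the remaining myeloid cells was 2179 and 2222 CPM in injured retina, against 11395 and 6439 CPM in uninjured retina. Fitted on those cells alone, Ccl3 fell by 1.97 ± 0.27 and Ccl4 fell by 1.62 ± 0.22 on the log2 scale (SE, adjusted p = 8.0e-05 and 5.2e-05 by edgeR). No monocyte class was left out of this fit. Over all cells, the injured retina pools held 696 and 125 UMIs of 8 monocyte genes (490 and 402 CPM, 6 and 4 genes detected). Uninjured retina 5 and 6 held 1 and 0 UMIs of them. Whether the make-up of the remaining myeloid cells differed between the groups was not tested.

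Ccl2 and Ccl12, ligands of the monocyte receptor Ccr2, were also lower after crush, with wider spread. Ccl2 had 137 and 196 CPM in injured retina, against 1569 and 405 CPM in uninjured retina, and fell by 2.70 ± 0.51 on the log2 scale (SE, adjusted p = 0.0045 by edgeR). The uninjured libraries differed from each other several-fold, and without uninjured retina 5 the change was -1.01 (adjusted p = 0.12). Ccl12 had 529 and 1019.7 CPM in injured retina, against 2969 and 1249 CPM in uninjured retina. It fell by 1.504 ± 0.44 on the log2 scale (SE, adjusted p = 0.035 by edgeR). The groups lay next to each other, with 1019.7 CPM in the higher injured pool and 1249 CPM in the lower uninjured library, and the change of Ccl12 was -0.41 without uninjured retina 5 (adjusted p = 0.44) and -1.01 without the pool of samples 1 and 2 (adjusted p = 0.24). Without T/NK-, oligodendrocyte- and endothelial-like cells it was -1.20 (adjusted p = 0.063), and with border macrophage-like cells also left out it was -1.23 (adjusted p = 0.024).

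Ccl9, a rodent ligand of Ccr1, was sparse. It had 31.0 and 28.9 CPM in injured retina (44 and 9 UMIs), against 112 and 229 CPM in uninjured retina (16 and 13 UMIs), with no overlap, and fell by 2.30 ± 0.43 on the log2 scale (SE, adjusted p = 0.0044 by edgeR). As Ccl9 entered the test only through the uninjured libraries, where it was higher, this p-value is a description. Ccl7, which like Ccl2 attracts monocytes through Ccr2, had 0 UMIs in both injured retina pools and 19 UMIs in uninjured retina 5, 18 of them in a single cell, with 0 in uninjured retina 6. Over the group, 0 UMIs against 19 is at least 54.9-fold lower with a floor of 3 counts, and this rests on 2 cells. Ccl8, which acts through Ccr8 in mice, had 3 UMIs in 1 cell of injured retina and 0 in uninjured retina, where a count of 0 allows up to 15.03 CPM.

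Ccl5, known as a product of T and NK cells as well as of activated macrophages, went the other way. It had 160 and 399 CPM in injured retina, against 49.0 and 0 CPM in uninjured retina (7 UMIs in 2 cells), and rose by 2.93 ± 0.71 on the log2 scale (SE, adjusted p = 0.016 by edgeR). As Ccl5 entered the test only through the injured libraries, where it was higher, this p-value is a description. T/NK-like cells made up 20.2% and 42.1% of the injured retina pools and 0% of both uninjured retina libraries, and the summed level of the 15 T and NK genes was 315 and 721 CPM in injured retina, against 7.003 and 0 CPM in uninjured retina. Trac, Trbc2 and Gzmb were at 0 UMIs in both injured pools. Ccl5 stood at 1217 and 2164 CPM in the T/NK-like cells of the injured pools, against 68.9 and 83.4 CPM in their remaining myeloid cells. The T/NK-like levels rested on few cells, as 4 of 22 and 5 of 24 held a Ccl5 UMI (18.2% and 20.8%). In each pool 1 T/NK-like cell held most of them, with 97 of 138 and 57 of 102 UMIs. Without T/NK-, oligodendrocyte- and endothelial-like cells, Ccl5 had 68.1 and 83.4 CPM in injured retina, against 50.7 and 0 CPM in uninjured retina, a change of 1.08 ± 0.63 on the log2 scale (SE, adjusted p = 0.24 by edgeR). Among the remaining myeloid cells, 22.4% and 24.2% of injured retina cells held a Ccl5 UMI, against 7.41% and 0% of uninjured retina cells, and thinned to 1000 UMIs per cell these shares were 5.18% and 6.64% in injured retina, against 4.29% and 0% in uninjured retina. Oligodendrocyte-like cells held Ccl5 in 0 of 83 cells (median 1563 UMIs per cell), all from optic nerve, so no background share was measured for retina.

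**Figure D2:**
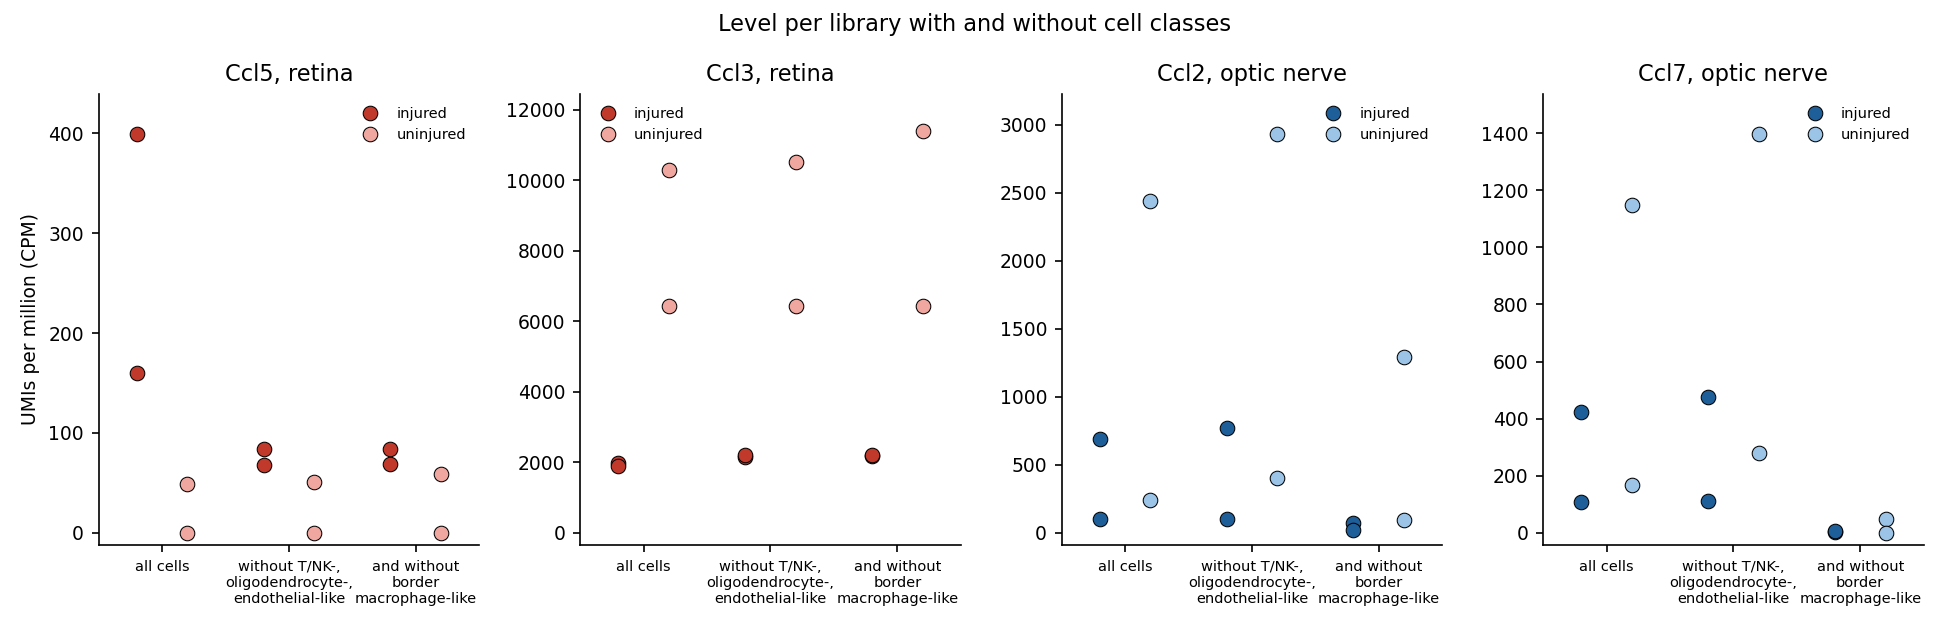
Level in CPM (linear y axes) of Ccl5 and Ccl3 in retina and of Ccl2 and Ccl7 in optic nerve, for all cells and with cell classes left out. Points are libraries, dark for injured and light for uninjured. Leaving out T/NK-like cells brought injured retina Ccl5 to 68.1 and 83.4 CPM, whereas Ccl3 stayed at 2152 and 2222 CPM, and leaving out border macrophage-like cells brought Ccl7 in injured nerve to 4.30 and 6.96 CPM.

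In optic nerve, no chemokine was called after crush at an adjusted p of 0.05 (limma on the mean ln value per library, 7 of 8 members tested, 31 of 7390 genes or 0.419% called, 574 genes at an unadjusted p under 0.05). In simulated libraries with a spread set the same for every gene, and not taken from the members, this test recovered 10 of 100 genes changed by 2 on the log2 scale and 53 of 100 changed by 4. A member not called in optic nerve may therefore still differ. The retina test recovered 22 of 56 and 65 of 65, counted only among changed genes that passed its filter on low counts. Its rates are thus not comparable with those of the optic nerve test. On UMIs recovered from the ln values and summed, edgeR called 53 of 5517 genes (0.961%) and none of the 7. No member was called without injured optic nerve 1 or without injured optic nerve 3, the libraries that share barcodes. The limma effects compare library means of ln values, the ln of 1 plus 10000 times the UMI share of a cell, and are not fold changes. The members with an unadjusted p under 0.05 were Ccl12 (-0.54 ± 0.21, SE, adjusted p = 0.51 by limma) and Ccl2 (-0.49 ± 0.23, SE, adjusted p = 0.64 by limma).

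Ccl12 had 320.0 and 80.4 CPM in injured optic nerve 1 and 3, against 1033 and 2104 CPM in uninjured optic nerve 2 and 4. The groups did not overlap, and the edgeR value was -2.82 ± 0.64 on the log2 scale (SE, adjusted p = 0.058). Ccl4 had 2174 and 520 CPM in injured optic nerve, against 2747 and 4066 CPM in uninjured optic nerve, also without overlap, at -0.57 ± 0.36 in mean ln value (adjusted p = 0.78 by limma). Ccl3 had 1032 and 266 CPM in injured optic nerve, against 1417 and 903 CPM in uninjured optic nerve, with injured library 1 inside the uninjured range (-0.29 ± 0.30, adjusted p = 0.96 by limma). Ccl9 had 50.2 and 26.0 CPM in injured optic nerve, against 148 and 59.4 CPM in uninjured optic nerve. The members Ccl4, Ccl9 and Ccl12 thus lay below the uninjured libraries without overlap and Ccl5 lay above them, where 25.2% of 11062 genes lay below and 13.1% above.

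Ccl2, Ccl7 and border macrophage-like cells were all highest in uninjured optic nerve 2. Ccl2 had 687 and 99.9 CPM in injured optic nerve, against 2436 and 238 CPM in uninjured optic nerve. Ccl7 had 424 and 109 CPM in injured optic nerve, against 1150 and 166 CPM in uninjured optic nerve. Border macrophage-like cells made up 6.16% and 3.67% of injured optic nerve 1 and 3, against 43.7% and 3.57% of uninjured optic nerve 2 and 4. The summed level of 11 border macrophage genes was 1588 and 849 CPM in injured optic nerve, against 5160 and 832 CPM in uninjured optic nerve, with 10 or 11 of the 11 detected in each library (Lyve1 at 0 in injured optic nerve 3 and Clec10a at 0 in uninjured optic nerve 4). Without border macrophage-like and the other 3 classes, Ccl7 had 4.30 and 6.96 CPM in injured optic nerve, against 49.2 and 0 CPM in uninjured optic nerve. Ccl2 then had 68.8 and 19.8 CPM in injured optic nerve, against 1292 and 96.9 CPM in uninjured optic nerve 2 and 4 (105 and 4 UMIs). It thus stayed highest in uninjured optic nerve 2 without those cells. Without uninjured optic nerve 4, Ccl7 passed the test at -0.54 ± 0.085 (adjusted p = 0.027 by limma), and without uninjured optic nerve 2 it stood at 0.02.

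Ccl5 was rare in nerve. It had 62.8 and 45.1 CPM in injured optic nerve (20 and 236 UMIs), against 2.85 and 0 CPM in uninjured optic nerve (1 UMI), a ratio of 20.1 with an exact 95% counting interval of 3.57 to 796. The difference of mean ln values was 0.07 ± 0.076 (adjusted p = 0.96 by limma). T and NK genes were near 0 in nerve, with a summed level of 0 and 1.72 CPM in injured optic nerve, against 5.69 and 0 CPM in uninjured optic nerve, and all Ccl5 UMIs of nerve lay in remaining myeloid cells. Ccl8 had 1 and 72 UMIs in injured optic nerve, against 16 and 0 UMIs in uninjured optic nerve, and 71 of the 72 came from 6 cells of a cluster led by S100a8, Gpnmb and Lyz2.

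On mean ln values the injury difference of Ccl3 differed between the tissues, a call that several alternatives did not keep. The optic nerve difference minus the retina difference was 1.99 ± 0.43 in mean ln value for Ccl3 (SE, adjusted p = 0.024 by limma), 1 of the 7 members tested, where 265 of 7390 genes (3.59%) were called, 1.01% higher and 2.57% lower. Over summed UMIs the injured to uninjured ratio of Ccl3 was 0.235 in optic nerve (exact 95% counting interval 0.214 to 0.259) and 0.214 in retina (0.202 to 0.226), and injured optic nerve 3 held 1390 of the 1719 UMIs of injured nerve. With each library weighing the same, the ratio of its mean CPM was 0.559 in optic nerve and 0.231 in retina. In mean ln value Ccl3 stood at -0.29 ± 0.30 in optic nerve and -2.28 ± 0.30 in retina. Ccl4 was at 1.75 ± 0.50 (adjusted p = 0.066 by limma) and Ccl9 at 0.37 ± 0.12 (adjusted p = 0.096 by limma). The mean ln value averages over all cells of a library, T/NK-like cells included, and these held 0 UMIs of Ccl3. Without T/NK-, oligodendrocyte- and endothelial-like cells the Ccl3 value was 0.98 ± 0.40 (adjusted p = 0.19 by limma), and without border macrophage-like cells too it was 0.80 ± 0.44 (adjusted p = 0.34 by limma). It was 1.35 ± 0.73 on the log2 scale by edgeR on recovered UMIs (adjusted p = 0.36, 1.34% of genes called), and 0.98 ± 0.69 on the log2(CPM + 10) scale (adjusted p = 0.51 by limma). With no filter on low values its adjusted p by limma was 0.084. With 1 library left out its adjusted p by limma lay between 0.027 and 0.097, and it missed the threshold without injured optic nerve 1, without uninjured optic nerve 2 or 4 and without the pool of samples 3 and 4.

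**Figure D3:**
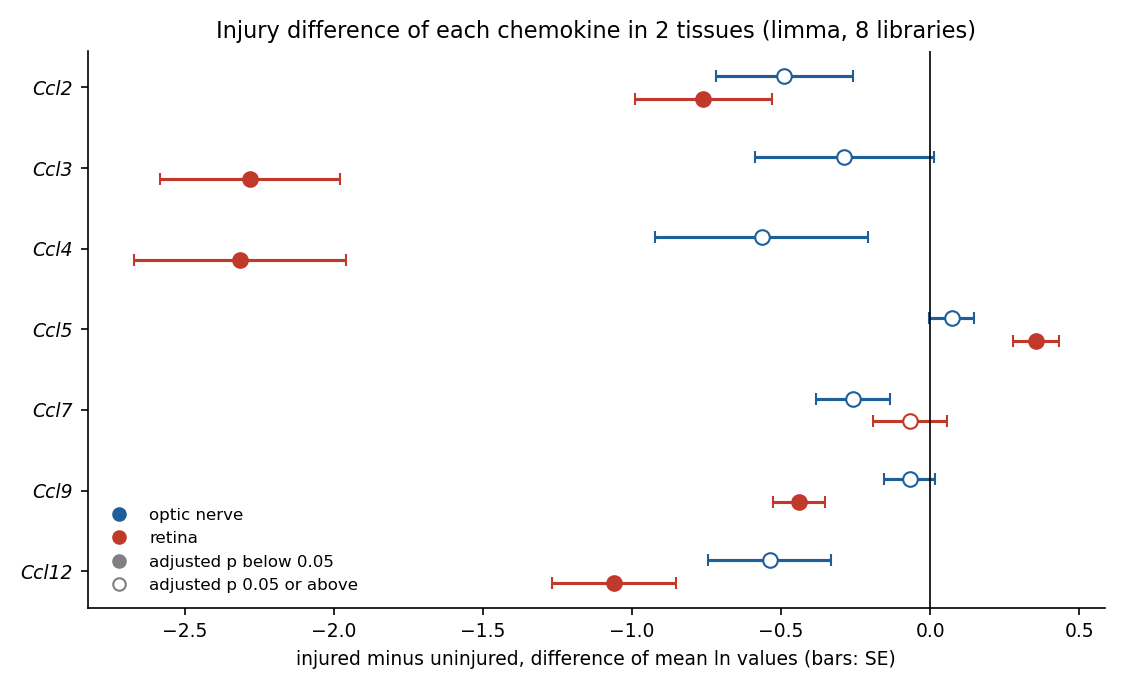
Injured minus uninjured difference of mean ln values for the 7 members tested, from limma over all 8 libraries, in optic nerve (blue) and retina (red). Bars are standard errors, and filled points have an adjusted p below 0.05. Ccl3 stood at -0.29 in optic nerve and -2.28 in retina, and no optic nerve point is filled.

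Among uninjured libraries, 4 of the 7 members tested were lower in optic nerve than in retina and none was higher, where 563 of 7390 genes (7.62%) were called, 5.87% lower and 1.75% higher. Of 15 microglia identity genes 13 were also lower and 0 higher, and of 21 immediate early genes 16 were lower and 1 higher. Remaining myeloid cells made up 33.0% and 75% of uninjured optic nerve 2 and 4, against 87.1% and 100% of uninjured retina 5 and 6. On a log2(CPM + 10) scale the split of all calls turned round, with 316 higher and 140 lower against 129 higher and 434 lower on mean ln values. Ccl3 had 1417 and 903 CPM in uninjured optic nerve, against 10281 and 6439 CPM in uninjured retina, at -3.08 ± 0.30 in mean ln value (adjusted p = 4.3e-05 by limma). Ccl4 had 2747 and 4066 CPM in uninjured optic nerve, against 11675 and 12650 CPM in uninjured retina, at -2.55 ± 0.36 (adjusted p = 0.00058 by limma). Ccl12 was at -1.12 ± 0.21 (adjusted p = 0.0040 by limma) although its CPM overlapped, and Ccl9 was at -0.38 ± 0.086 (adjusted p = 0.015 by limma). Ccl3 alone was called by edgeR on recovered UMIs, with 2.25% of 5517 genes called, where Ccl4 had an adjusted p of 0.057, Ccl12 of 0.65 and Ccl9 of 0.68. On the log2(CPM + 10) scale Ccl12 had an adjusted p of 0.74 and Ccl9 one of 0.43 by limma, and without T/NK-, oligodendrocyte- and endothelial-like cells Ccl9 had one of 0.083. Ccl12 had an adjusted p of 0.063 without uninjured optic nerve 2, and Ccl9 one of 0.18 without uninjured optic nerve 4, both by limma. Ccl2, Ccl5 and Ccl7 had adjusted p-values of 0.36, 0.67 and 0.13 by limma. Without uninjured optic nerve 2, which leaves uninjured optic nerve 4 alone in its group, Ccl2 was at -0.83. Ccl7 had 960 CPM over the uninjured optic nerve libraries summed, against 95.2 CPM over uninjured retina, a ratio of 10.1 with an exact 95% counting interval of 6.38 to 16.9. Without uninjured optic nerve 4, which leaves uninjured optic nerve 2 alone in its group, the Ccl7 difference was 0.60 in mean ln value. Uninjured optic nerve 2 held 404 of the 418 nerve UMIs of Ccl7, and without it the difference was 0.03, with 166 CPM in uninjured optic nerve 4.

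Among injured libraries, 2 of the 7 members were lower in optic nerve than in retina, where 704 of 7390 genes (9.53%) were called, 9.19% lower and 0.338% higher. By edgeR on recovered UMIs the split of all calls was 193 higher and 190 lower. Ccl3 was at -1.09 ± 0.30 in mean ln value (adjusted p = 0.037 by limma), with 1032 and 266 CPM in injured optic nerve, against 1980.4 and 1885 CPM in injured retina. With 1 library left out its adjusted p by limma lay between 0.033 and 0.28, and it passed only without uninjured retina 5 or 6. Its adjusted p was 0.086 by edgeR on recovered UMIs, 0.10 by limma on the log2(CPM + 10) scale and 0.079 by limma with no filter on low values. Without T/NK-, oligodendrocyte- and endothelial-like cells Ccl3 was at -1.83 ± 0.28 (adjusted p = 0.0012 by limma). Ccl5 was at -0.34 ± 0.076 (adjusted p = 0.014 by limma), with 62.8 and 45.1 CPM in injured optic nerve, against 160 and 399 CPM in injured retina. Ccl5 met the filter of 5% of cells on average only through injured retina, where 21.1% and 22.8% of cells held it. Its call and the count of 2 members are therefore descriptions. It missed the threshold without injured optic nerve 1 (adjusted p = 0.079), without injured optic nerve 3 (0.12) and without the pool of samples 3 and 4 (0.078), and on the log2(CPM + 10) scale (0.26), all by limma. With those 3 classes left out Ccl5 was at -0.19 ± 0.063 (adjusted p = 0.064 by limma), while Ccl4 at -1.61 ± 0.35 and Ccl12 at -1.01 ± 0.23 then passed the test (adjusted p = 0.0093 and 0.013 by limma). Ccl7 had 705 UMIs in 33 cells of injured optic nerve and 0 UMIs in injured retina, at least 73.3-fold higher with a floor of 3 counts over the group. It was called by edgeR on recovered UMIs (adjusted p = 0.0050, 6.94% of 5517 genes called) and not by limma (0.12 ± 0.12, adjusted p = 0.58).

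Cell classes differed in which chemokines they held, and libraries differ in level, so classes were compared within libraries and without a test. In the 3 nerve libraries with at least 9 border macrophage-like cells, Ccl7 had 2626, 2758 and 1925 CPM in border macrophage-like cells (injured 1, injured 3 and uninjured 2), against 4.30, 6.96 and 49.2 CPM in remaining myeloid cells. Ccl2 had 3978, 2187 and 3574 CPM in border macrophage-like cells, against 68.8, 19.8 and 1292 CPM in remaining myeloid cells of the same libraries. Over all libraries, 94.8% of Ccl7 UMIs lay in 85 border macrophage-like cells. Ccl9 and Ccl12 were also higher in border macrophage-like cells in these 3 libraries, Ccl12 with 509, 1482 and 1630 CPM against 327, 27.0 and 320.0 CPM in remaining myeloid cells. Ccl3 had no such order, with 58.8, 746 and 1233 CPM in border macrophage-like cells, against 1394, 254 and 2991 CPM in remaining myeloid cells. Ccl5 had 0 UMIs in the 85 border macrophage-like cells, where a count of 0 allows up to 6.03 CPM. T/NK-like cells had 0 UMIs of every member but Ccl5 (0 of 47 cells, where a count of 0 allows up to 18.6 CPM). Ccl3 was seen in 7.23% and Ccl4 in 8.43% of oligodendrocyte-like cells (median 1563 UMIs per cell), against 41.8% and 43.5% of remaining myeloid cells (median 2400 UMIs per cell). Remaining myeloid cells of the groups fell in different clusters: cluster 1 held 84 of 85 and 33 of 33 in the injured retina pools, and cluster 5 held 38 of the 43 uninjured retina cells. Cluster 5 was led by the endothelial genes Cldn5, Slco1a4 and Vwf. None of these genes was detected in either uninjured retina library, so they came from the nerve cells of the cluster. Of the 43 uninjured retina cells, 1 had 5 or more of 14 endothelial genes, so the cluster was given no class of its own. In nerve most remaining myeloid cells lay in cluster 6 (led by Cxcl13, Cst7 and Ccl6), cluster 2 (Egr3 and Olr1) and cluster 4 (S100a8 and Gpnmb).

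**Figure D4:**
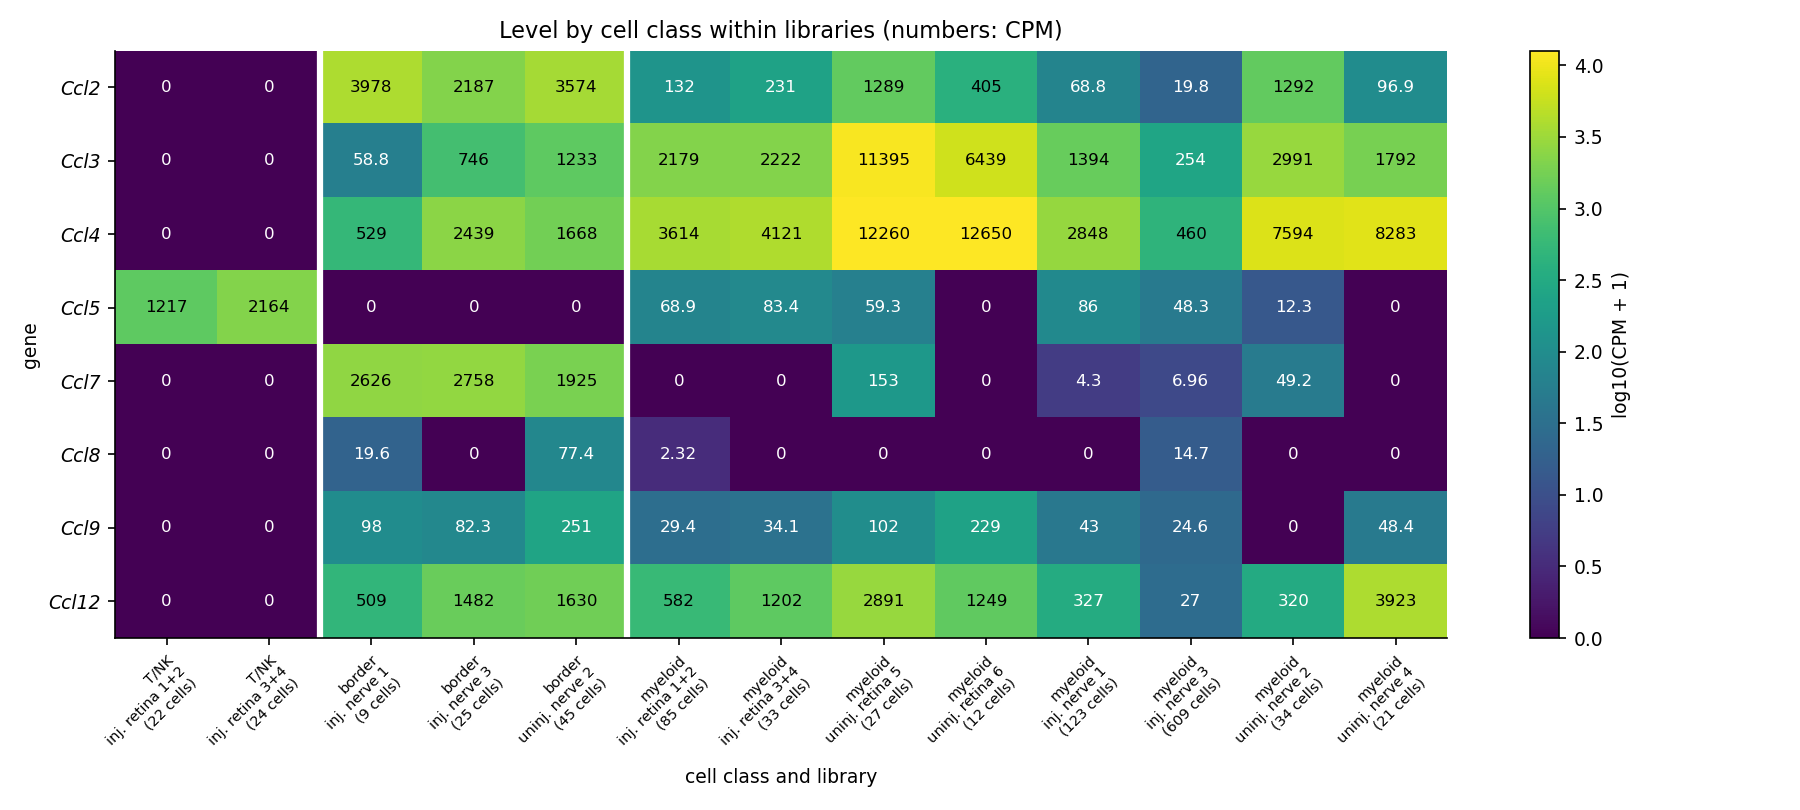
Level of each chemokine (rows; colour is log10 of CPM + 1 and printed numbers are CPM) by cell class within libraries (columns, with the number of cells). White lines separate T/NK-like, border macrophage-like and remaining myeloid cells. Ccl7 stood at 1925 to 2758 CPM in border macrophage-like cells of the 3 nerve libraries with at least 9 such cells and at 0 to 153 CPM in remaining myeloid cells, and T/NK-like cells held Ccl5 alone.

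Within cells, Ccl2, Ccl7 and Ccl12 varied together, as did Ccl3 and Ccl4, while Ccl5, Ccl8 and Ccl9 had weak correlations with every member. Over the 1029 myeloid cells, after subtracting library means, Pearson's r of ln values was 0.57 for Ccl2 and Ccl7, 0.33 for Ccl2 and Ccl12, 0.32 for Ccl7 and Ccl12 and 0.47 for Ccl3 and Ccl4, and it lay between -0.06 and 0.19 for every other pair. These are descriptions over cells that share libraries and depth. The cells were 944 remaining myeloid and 85 border macrophage-like cells, and class means were not subtracted. The border macrophage-like cells held 94.8% of Ccl7 UMIs and 69.8% of Ccl2 UMIs, so these correlations include the difference between classes. Correlation within a class was not tested. Ccl3 and Ccl4 were found together in 310 cells of 431 with Ccl3 and 453 with Ccl4, and Ccl2 and Ccl7 in 47 cells of 151 with Ccl2 and 59 with Ccl7. Ccl4 had 1.66 and 1.85 UMIs per Ccl3 UMI in injured retina, against 1.136 and 1.96 in uninjured retina, and 2.11 and 1.96 in injured optic nerve, against 1.94 and 4.5 in uninjured optic nerve. The 10% of cells richest in Ccl3 held 43.4% and 57.3% of its UMIs in injured retina, against 30.2% and 29.8% in uninjured retina, and 87.2% and 85.3% in injured optic nerve, against 72.5% and 84.2% in uninjured optic nerve.

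**Figure D5:**
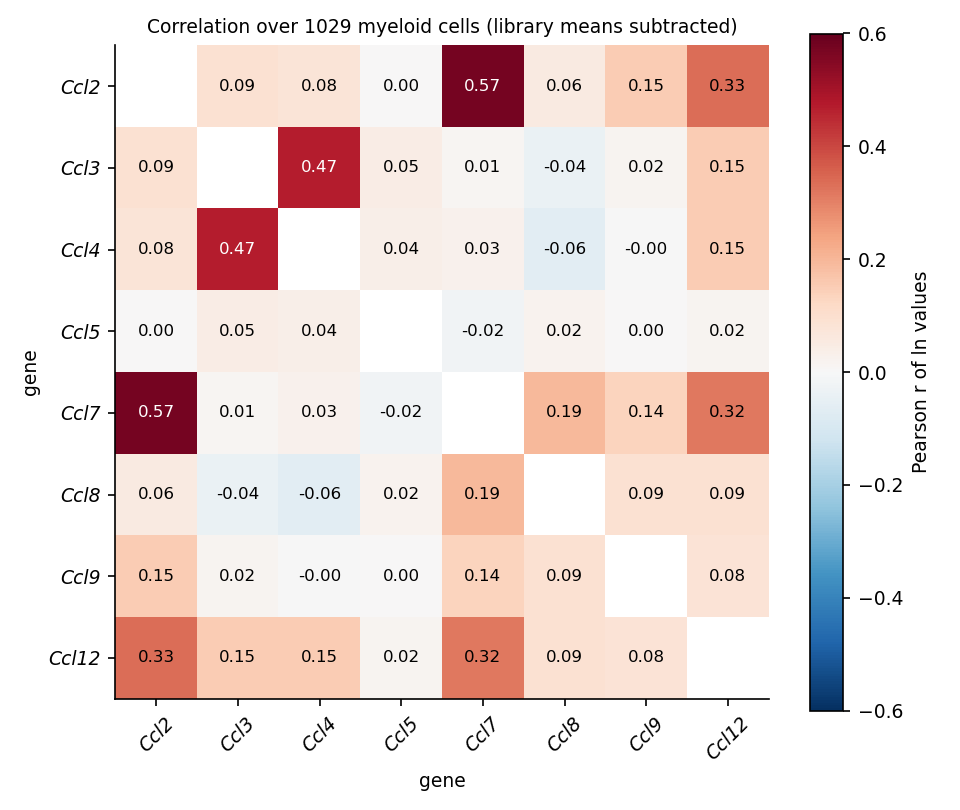
Pearson correlation of ln values between members over 1029 myeloid cells, border macrophage-like cells included, with library means but not class means subtracted (colour scale from -0.6 to 0.6). Ccl2 with Ccl7 (0.57) and Ccl3 with Ccl4 (0.47) stand apart from pairs such as Ccl3 with Ccl7 (0.01).

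Among 5404 genes seen in at least 10% of myeloid cells, the genes most like Ccl3 were the cytokine Tnf (r = 0.22), the AP-1 subunit Junb (0.20) and the chemerin receptor Ccrl2 (0.19). Those most like Ccl4 were the immediate early genes Egr1 (0.25), Junb (0.22) and Btg2 (0.22). Ccl2 was most like Stab1, a scavenger receptor and border macrophage gene (0.37), then Tgfbi (0.36) and Ifitm3 (0.33). Ccl12 was most like the complement receptor C5ar1 (0.25), and Ccl9 like Tgfbi (0.22). In sparse counts such correlations are small and are given as description. They too include the difference between border macrophage-like and remaining myeloid cells.

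In retina, genes of the cytokine, NF-kB and immediate early lists fell beside the chemokines, where 9.72% of all genes tested fell. Whether any of them acted upstream of the chemokines was not tested. Of 4 cytokines tested that are known to induce chemokines, Tnf and Il1a fell in injured retina and none rose. Tnf had 175 and 106 CPM in injured retina, against 1268 and 1302 CPM in uninjured retina, and fell by 3.11 ± 0.31 on the log2 scale (SE, adjusted p = 9.7e-05 by edgeR). Of 13 NF-kB signalling and feedback genes tested in retina, the IkB family genes Nfkbid, Nfkbib, Nfkbiz and Nfkbia fell and none rose. Of 20 immediate early genes tested, 16 fell in injured retina and none rose, with a summed level of 19268 and 22046 CPM in injured retina, against 64838 and 64886 CPM in uninjured retina. In optic nerve Jun and Zfp36 fell among 21 tested, with a summed level of 10599 and 10600.1 CPM in injured optic nerve, against 25062 and 27805 CPM in uninjured optic nerve. Over all genes tested 0.244% fell in optic nerve. Immediate early genes thus fell in retina beside Ccl3 and Ccl4, and their part in the chemokine differences was not tested. Of 15 microglia identity genes, 10 fell and none rose in injured retina.

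The receptor genes Ccr2 and Ccr1 were sparse in retina. In retina Ccrl2, a chemerin receptor, entered the test and was not called. Ccr2, the receptor of Ccl2, Ccl7 and Ccl12, had 20.4 and 16.1 CPM in injured retina (29 and 5 UMIs), against 0 and 0 CPM in uninjured retina. A count of 0 there allows up to 21.0 CPM in uninjured retina 5 and 52.8 CPM in uninjured retina 6, so Ccr2 could not be told apart between the groups. Ccr1 had 0 and 0 CPM in injured retina, against 28.0 and 0 CPM in uninjured retina. Of 13 other CC ligands, Ccl6 alone entered the tests. It had 145 and 122 CPM in injured retina, against 126 and 106 CPM in uninjured retina, at 0.18 ± 0.36 on the log2 scale (SE, adjusted p = 0.75 by edgeR).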

How the data were processed

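Retina and optic nerve cells were read with a droplet 3′ kit and, per the submitters' processing notes, processed with Cell Ranger 1.3 and Seurat 4.0.3 on mm10. The retina columns of the deposited table are raw UMI counts. The optic nerve columns are natural log values, ln of 1 plus 10000 times a cell's UMI share, deposited without counts; all 1374534 of them above 0 (100%) gave whole UMIs within 0.01. The last 24183 gene entries hold no UMI in uninjured retina, so retina was tested on the first 27998.

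Counts were summed per library (2 per group). Retina injury was tested with edgeR 4.0.16 (quasi-likelihood, TMM, filterByExpr) and the other comparisons with limma 3.58.1 on library means of the ln values in 1 fit of all 8 libraries, for genes detected in both tissues and in at least 5% of cells on average. P-values were adjusted by Benjamini-Hochberg over all genes tested. The ln values were averaged over cells whose depth differed between libraries, which lowers the mean of a gene in shallow cells. Scripts were tested on simulated data.

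Cells were clustered without the members (scanpy 1.11.5, 2000 variable genes, 30 components, 15 neighbours, resolution 0.5), and no doublet caller was run. A cluster took a class name from at least 2 markers among its top 10 genes and 3 among its top 50. Endothelial-like cells were those with at least 5 of 14 markers. Alternatives were DESeq2 1.42.0, edgeR on recovered UMIs, log2(CPM + 10), other filters, single libraries left out and classes left out. Leaving out border macrophage-like cells and the crossed block were chosen after seeing the data. The members and gene lists were chosen with earlier results of these data known. All 8 members are named, and genes like a member are the 3 with the highest correlation. Sequences come from RefSeq. Results for some genes are not reported here.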

Additional observations from a re-analysis of the deposited data

Results flagged for a closer look

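On mean ln values the injury difference of Ccl3 differed between the tissues by a test of the difference itself. The optic nerve difference minus the retina difference was 1.99 ± 0.43 in mean ln value (SE, adjusted p = 0.024 by limma over 7390 genes), from -0.29 in optic nerve and -2.28 in retina. Ccl3 was lower in both injured retina pools than in both uninjured retina libraries, and injured optic nerve 1 lay within the uninjured optic nerve range. T/NK-like cells, at 20.2% and 42.1% of the injured retina pools and 0% of uninjured retina, moved with it, and without T/NK-, oligodendrocyte- and endothelial-like cells the value was 0.98 (adjusted p = 0.19 by limma). It was 1.35 on the log2 scale by edgeR on recovered UMIs (adjusted p = 0.36) and 0.98 on the log2(CPM + 10) scale (adjusted p = 0.51 by limma). Over summed UMIs the injured to uninjured ratio was 0.235 in optic nerve and 0.214 in retina, and injured optic nerve 3 held 1390 of the 1719 UMIs of injured nerve. With each library weighing the same, the ratio of mean CPM was 0.559 in optic nerve and 0.231 in retina.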

How the results depend on the processing

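Counts of called genes moved with the method. In retina injury DESeq2 called 341 and limma on ln values 1035 (736 higher, 299 lower), against 653, and all 3 called the same 6 members. In optic nerve injury edgeR on recovered UMIs called 53, log2(CPM + 10) 20 and no filter 1, against 31. For injury by tissue edgeR called 74 (35 higher, 39 lower), log2(CPM + 10) 113, no filter 29 and the fit without border macrophage-like cells 163, against 265 (75 higher, 190 lower). Between uninjured tissues edgeR called 124 and no filter 367, against 563. Between injured tissues edgeR called 383, log2(CPM + 10) 110 (40 higher, 70 lower) and no filter 440, against 704. With 1 library left out the counts ran from 415 to 699 in retina injury, 8 to 52 in optic nerve injury, 50 to 681 for injury by tissue, 221 to 1211 between uninjured tissues and 116 to 1146 between injured tissues. The cause was not tested.

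With a replicate block between injured tissues, 445 genes were called, and Ccl3 and Ccl5 passed. The shared numbers only number the samples (r of deviations -0.22 over 7390 genes), and the crossed pairing called 577.

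Of 454 member values under alternatives, 379 kept direction and side of the threshold, 39 lost a call, 15 gained one and 21 changed sign, none of them called in its main test. For injury by tissue edgeR gave Ccl5 1.55, Ccl7 7.98 and Ccl12 -1.37, and log2(CPM + 10) gave Ccl7 0.92 and Ccl12 -1.72. Without the other cell classes Ccl12 was at -0.16 and Ccl2 at -0.0070, and without border macrophage-like cells too Ccl9 was at 0.072 in optic nerve injury. Ccl2 was at 0.34 between uninjured tissues by edgeR. Between injured tissues edgeR gave Ccl2 1.22 and Ccl9 0.23, and log2(CPM + 10) gave 0.67 and 0.22. The other sign changes came with 1 library left out. In optic nerve injury Ccl4 ran from -1.17 without injured 1 to 0.038 without injured 3, Ccl7 from -0.54 without uninjured 4 to 0.024 without uninjured 2, and Ccl9 from -0.16 without uninjured 4 to 0.017 without uninjured 2. For injury by tissue Ccl2 ran from -0.20 without uninjured optic nerve 4 to 0.74 without uninjured optic nerve 2, and Ccl7 from -0.47 to 0.093 without the same libraries. Between uninjured tissues Ccl2 ran from -0.83 without uninjured optic nerve 2 to 0.12 without uninjured optic nerve 4, and Ccl5 from -0.13 without uninjured retina 6 to 0.0050 without uninjured retina 5. Between injured tissues Ccl9 ran from -0.031 without the pool of samples 3 and 4 to 0.023 without the pool of samples 1 and 2. Of 64 shares of cells, 21 fell outside their counting interval after thinning, all 21 lower. Depth limits Ccl7 and Ccl8 in uninjured retina, where cells number 43 and a floor of 3 counts stands at 21.0 and 52.8 CPM. In the injured retina pools that floor stood at 2.11 and 9.65 CPM, and Ccl7 had 0 UMIs there.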
